A study of Homo sapiens with 10 samples.

Results

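IKBKE, TBK1, CHUK, IKBKB, IKBKG, TANK, AZI2, TBKBP1 and OPTN encode the 4 kinases of the IKK family and 5 proteins that regulate these kinases or bring them to their targets. The genes were taken by symbol, not by a threshold on a measured value, but with earlier results of these data known. They make up 9 of the 23426 gene symbols with an FPKM value (sequenced fragments, normalized to transcript length and library size) in every sample. All 9 passed the filter on low values and entered every test. IKBKE and TBK1 also belong to the kinases that the study considered as candidate targets of PKC412. For IKBKE the study went on to report that its inhibition was not specifically cytotoxic.

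RNA sequencing was performed on 10 samples of 2 established breast cancer cell lines, the basal-like, triple-negative line MDA-MB-468 and the luminal line ZR75-1. Cells of each line were exposed for 6 h either to PKC412 (midostaurin, a staurosporine-derived inhibitor of many kinases) at 1 µM or to its solvent DMSO. There were 2 DMSO and 3 PKC412 samples per line in the files analysed here, the labels name no engineered allele, and each breast cancer subtype was represented by a single line. The question was how the transcriptome of a basal-like line and of a luminal line responds to the inhibitor. Nothing in the labels says that replicates came from separate cultures, so the p-values measure the spread between these samples, which may be technical.

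The IKK kinases turn receptor and stress signals into transcription. CHUK (IKKα) and IKBKB (IKKβ) form the canonical complex with the regulatory subunit IKBKG (NEMO), which binds ubiquitin chains, and phosphorylate the IκB proteins that hold NF-kappaB in the cytoplasm. IKBKE (IKKε) and TBK1, the noncanonical pair, phosphorylate IRF3 downstream of nucleic acid sensors and are recruited by the adaptors TANK, AZI2 (NAP1) and TBKBP1 (SINTBAD), while OPTN is a ubiquitin-binding autophagy receptor that TBK1 phosphorylates. IKBKE is also known as an amplified and overexpressed oncogene in breast cancer.

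The cell lines were checked against markers of their labelled subtypes. Basal markers (9 genes, among them KRT5, KRT14 and EGFR) summed to 2510 to 2734 FPKM in MDA-MB-468 and to 5.29 to 8.74 FPKM in ZR75-1, and luminal markers (10 genes) to 3006 to 6563 and 11975 to 20859 FPKM. The keratins KRT8, KRT18 and KRT19, which MDA-MB-468 also expressed at means of 920 to 2787 FPKM, and in ZR75-1 TFF1 made up most of the luminal sums. The luminal regulators had low FPKM but differed between the lines, with DMSO means of 0.160 and 3.86 for ESR1, 5.27 and 52.2 for GATA3 and 1.31 and 14.3 for FOXA1 in MDA-MB-468 and ZR75-1, whereas PGR was at most at a mean of 0.281 FPKM in a group. Immune and stromal markers (8 genes) summed to 7.77 to 18.7 FPKM, with at least 6 of the 8 under 1 FPKM in all samples of each group. Depth is unknown because the files hold no counts, and the error of each value rests on the replicates alone. Correlations of log2(FPKM + 1) between replicates across genes were 0.957 to 0.983. The libraries differed in how strongly a gene's FPKM depended on the GC content of its transcript. This dependence, the GC slope, is the change of the log2 deviation from the line mean per 10 percentage points of GC over 8761 genes in MDA-MB-468 and 7719 in ZR75-1.

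IKBKE and TBK1 are close relatives whose genes differ in base composition. On GRCh38 (GENCODE release 29) IKBKE lies on the forward strand of chromosome 1 from 206470476 to 206496889, and TBK1 on the forward strand of chromosome 12 from 64451880 to 64502108. The longest run of identical residues in the 2 proteins covers residues 122 to 143 of both and holds the catalytic loop of the kinase domain. It is encoded in exon 6 of IKBKE (chr1:206476186-206476251) and in exon 5 of TBK1 (chr12:64466906-64466971), all coding sequence. The 66 bases are shown, 5′ to 3′, because they carry the same 22 amino acids with different bases, which are in capitals.
IKBKE: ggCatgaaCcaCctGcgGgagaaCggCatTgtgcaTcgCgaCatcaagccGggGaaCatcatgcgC
TBK1: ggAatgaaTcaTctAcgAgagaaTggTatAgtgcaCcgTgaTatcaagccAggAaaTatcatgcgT
Of the 66 bases, 15 differed, all 15 at the third base of a codon, and the GC content of the stretch was 60.6% in IKBKE and 42.4% in TBK1. Over the whole coding sequence, G or C stood at 77.4% of the third codon bases in IKBKE and at 29.9% in TBK1.

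IKBKE was the member with the largest difference between the cell lines in DMSO. Its level was 4.71 and 4.91 FPKM in the DMSO samples of MDA-MB-468, and 42.1 and 34.7 FPKM in those of ZR75-1. The ZR75-1 mean (38.4 ± 5.23 FPKM, SD, n = 2) was 7.99-fold that of MDA-MB-468 (4.81 ± 0.140 FPKM, SD, n = 2), and the difference on the log2(FPKM + 1) scale was -2.76 (MDA-MB-468 minus ZR75-1, SE 0.128, limma adjusted p = 1.69e-06). In RNA of whole cultures, fewer cells with a transcript and less of it per cell cannot be told apart. In PKC412 the samples still did not overlap, with 8.87, 8.42 and 9.68 FPKM in MDA-MB-468 and 30.2, 32.3 and 31.6 FPKM in ZR75-1, a 3.49-fold higher mean in ZR75-1 (log2 difference -1.70, SE 0.105, adjusted p = 3.93e-06). These calls held under all 18 processing alternatives tried. Calls were common between the lines, since 42.4% of the 16071 genes tested passed the threshold of an adjusted p under 0.05 in DMSO and 58.6% in PKC412. Among the members, 6 of 9 passed in each agent.

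TBK1 did not pass between the lines. Its FPKM in MDA-MB-468 was 1.41 and 2.32 with DMSO and 4.22, 2.63 and 3.05 with PKC412. In ZR75-1 it was 3.01 and 7.74 with DMSO and 6.84, 1.05 and 10.4 with PKC412. The lines did not overlap in DMSO but did in PKC412. The ZR75-1 libraries included both the lowest and the highest value of all 10 samples, and the log2 difference between the lines was -1.06 in DMSO (95% interval -2.77 to 0.64, limma adjusted p = 0.296) and -0.42 in PKC412 (-1.81 to 0.98, adjusted p = 0.577). Without ZR75-1 PKC412 replicate 2, the library with the lowest TBK1 level, the difference in PKC412 was -1.15 and passed the threshold (adjusted p = 0.0315).

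**Figure D1:**
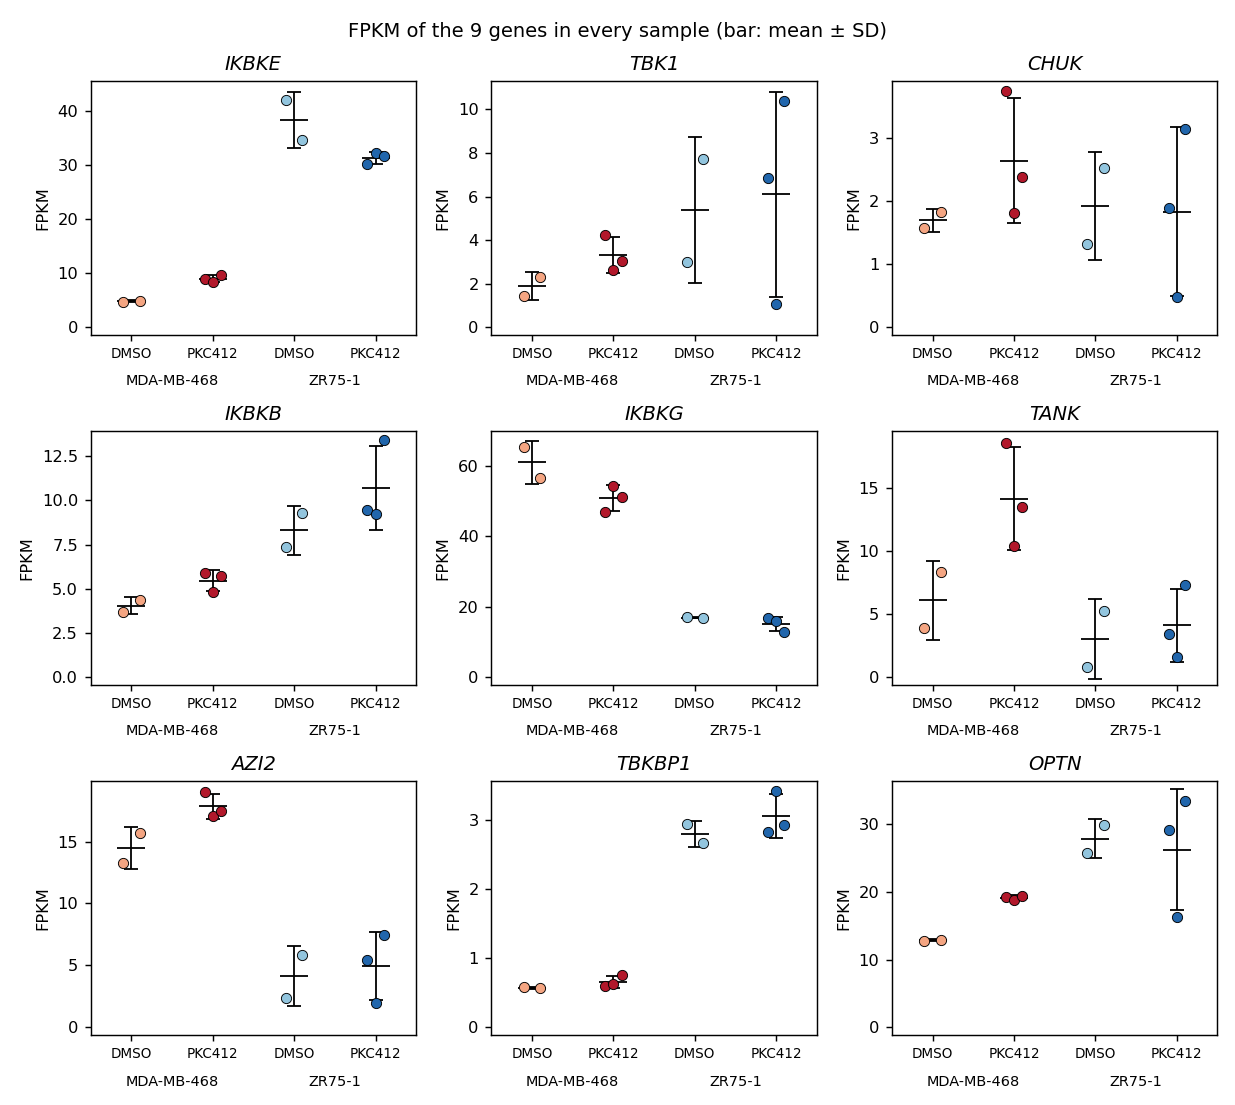
FPKM (linear axis) of each of the 9 genes, one panel per gene, with a point per sample, and the mean ± SD of the 2 DMSO or 3 PKC412 samples of each cell line as black bars. IKBKE lay between 4.71 and 9.68 FPKM in MDA-MB-468 and between 30.2 and 42.1 FPKM in ZR75-1, whereas the ZR75-1 values of TBK1 ran from 1.05 to 10.4 FPKM.

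The balance of the noncanonical pair was also expressed as the ratio of the 2 FPKM values within a sample, which does not depend on a factor that scales a whole sample. IKBKE exceeded TBK1 in all 10 samples. Among the samples of MDA-MB-468 the ratio ran from 2.10 to 3.33, and among those of ZR75-1 from 3.04 to 30.9. MDA-MB-468 had a mean log2 ratio of 1.45 ± 0.340 (SD, n = 5), ZR75-1 one of 2.93 ± 1.40 (SD, n = 5). Their difference of -1.49 came with a two-sided exact permutation p = 0.0317 over 252 arrangements, for which 0.00794 is the smallest possible. The test and the SDs pooled the samples of both agents within a line and took no account of the agent. Leaving out any 1 of the MDA-MB-468 samples raised this exact p to between 0.0794 and 0.103. In ZR75-1 the ratios of 14.0 and 30.9 came from the libraries with the highest GC slopes (0.314 and 0.342), the ratio of 3.04 from the one with the lowest (-0.356), and the other two were 4.41 and 4.49. The part of the slope in the difference between the lines was not tested. PKC412 moved the mean log2 ratio by 0.064 in MDA-MB-468 (exact permutation p = 1) and by -0.089 in ZR75-1 (p = 0.9), where 2 samples against 3 cannot give a p below 0.1.

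**Figure D2:**
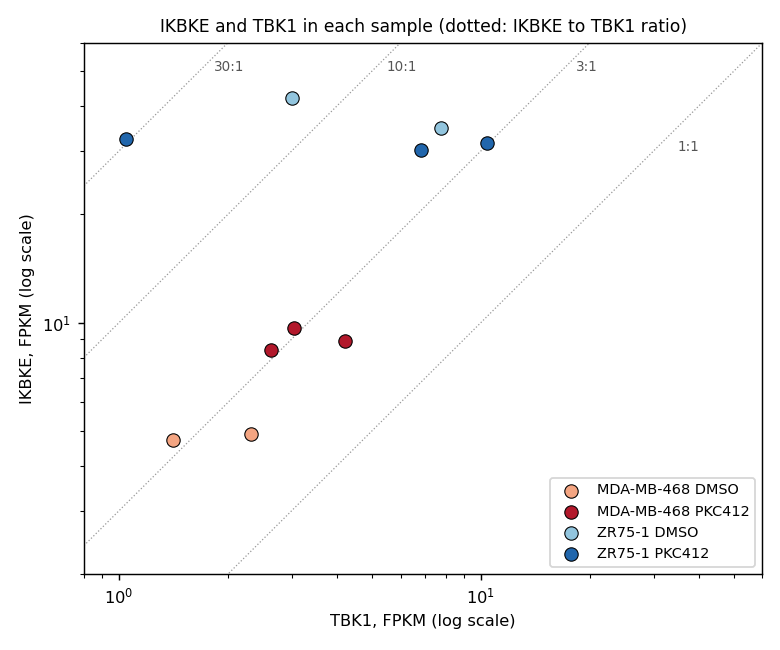
FPKM of IKBKE against that of TBK1 on log axes, one point per sample, colored by cell line and agent, with dotted lines at fixed ratios. MDA-MB-468 samples lay at 2.10 to 3.33 IKBKE per TBK1, and the ZR75-1 samples were spread along the TBK1 axis at nearly constant IKBKE, from 3.04 to 30.9.

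In the canonical complex IKBKG was higher in MDA-MB-468 and IKBKB was lower, while CHUK did not pass in either agent. IKBKG was at 65.3 and 56.6 FPKM in DMSO and 46.9, 54.3 and 51.1 FPKM in PKC412 in MDA-MB-468, the highest of the 9 genes there, and at a mean of 16.9 ± 0.104 FPKM (SD, n = 2) with DMSO and at 16.7, 16.0 and 13.0 FPKM with PKC412 in ZR75-1. The lines did not overlap, and the MDA-MB-468 mean was 3.60-fold higher in DMSO (log2 difference 1.78, SE 0.145, limma adjusted p = 2.93e-05) and 3.33-fold higher in PKC412 (1.68, adjusted p = 8.27e-06). Both calls held under all 18 alternatives. IKBKG nonetheless counts as uncertain, since it has a near-identical copy, the pseudogene IKBKGP1, with which it can share reads, and the sources used here do not say whether strand was used in counting.

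IKBKB, the catalytic subunit that phosphorylates IκBα, was lower in MDA-MB-468. Its values were 3.70 and 4.39 FPKM in DMSO and 5.88, 4.81 and 5.71 FPKM in PKC412 in this line. In ZR75-1 they were 7.34 and 9.27 FPKM in DMSO and 9.43, 9.22 and 13.4 FPKM in PKC412, all above every MDA-MB-468 sample. The ZR75-1 mean was 2.05-fold higher in DMSO (log2 difference -0.88, limma adjusted p = 0.0105) and 1.96-fold higher in PKC412 (-0.84, adjusted p = 0.00353). The call in DMSO was lost without MDA-MB-468 DMSO replicate 1 (adjusted p = 0.0663) or ZR75-1 DMSO replicate 2 (adjusted p = 0.0610). CHUK, the subunit that also acts in the noncanonical NF-kappaB pathway, was low in both lines. It ranged from 1.57 to 3.74 FPKM over the MDA-MB-468 samples and from 0.472 to 3.14 FPKM over those of ZR75-1, with log2 differences of -0.086 (95% interval -1.16 to 0.99) in DMSO and 0.45 (-0.43 to 1.33) in PKC412.

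Among the adaptors, AZI2 was higher in MDA-MB-468, TANK was higher there in PKC412, and TBKBP1 was higher in ZR75-1. AZI2, which holds TBK1 in a signaling complex, was at 13.3 and 15.7 FPKM in DMSO and had a mean of 17.8 ± 1.03 FPKM (SD, n = 3) in PKC412 in MDA-MB-468, against 2.41 and 5.83 FPKM and 5.45, 1.98 and 7.45 FPKM in ZR75-1. The lines did not overlap, and the log2 difference was 1.68 in DMSO (3.51-fold, limma adjusted p = 0.0227) and 1.79 in PKC412 (3.60-fold, adjusted p = 0.00485). In DMSO the call was lost without MDA-MB-468 DMSO replicate 1, MDA-MB-468 DMSO replicate 2 or ZR75-1 DMSO replicate 1, with adjusted p = 0.0685, 0.108 and 0.137. AZI2 overlaps CMC1, which was at a mean of 17.6 FPKM, on the opposite strand.

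TANK, which binds TRAF proteins and both noncanonical kinases, passed between the lines in PKC412 alone. It was at 3.91 and 8.34 FPKM in DMSO and 18.6, 10.5 and 13.5 FPKM in PKC412 in MDA-MB-468, and at 0.779 and 5.25 FPKM and 3.46, 1.60 and 7.31 FPKM in ZR75-1. The difference was 1.69 in PKC412 (3.44-fold, limma adjusted p = 0.0324) and 1.02 in DMSO (2.03-fold, 95% interval -0.58 to 2.62, adjusted p = 0.285). The PKC412 call was lost under 6 of 18 alternatives, among them each of the fits without MDA-MB-468 PKC412 replicates 1 or 3 or ZR75-1 PKC412 replicates 1 or 2 (adjusted p between 0.0744 and 0.101).

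TBKBP1 was the least abundant of the 9 genes in MDA-MB-468 and had a small spread in both lines. Its FPKM was 0.577 and 0.564 in DMSO and 0.596, 0.628 and 0.758 in PKC412 in MDA-MB-468, and 2.93 and 2.67 in DMSO and 2.82, 3.41 and 2.93 in PKC412 in ZR75-1. The ZR75-1 mean was 4.91-fold higher in DMSO (log2 difference -1.27, limma adjusted p = 1.29e-04) and 4.62-fold higher in PKC412 (-1.29, adjusted p = 2.48e-05), and these calls held under all 18 alternatives. OPTN was at 12.8 and 13.0 FPKM in DMSO and 19.3, 18.8 and 19.4 FPKM in PKC412 in MDA-MB-468, and at 25.8 and 29.9 FPKM and 29.1, 16.2 and 33.5 FPKM in ZR75-1. Its difference passed in DMSO (-1.05, 2.16-fold higher in ZR75-1, adjusted p = 0.0175) but not in PKC412 (-0.38, 95% interval -0.91 to 0.16, adjusted p = 0.197), where ZR75-1 PKC412 replicate 2 fell among the MDA-MB-468 values. Without that library the PKC412 difference was -0.68 (adjusted p = 0.00130). In DMSO the OPTN call was lost without MDA-MB-468 DMSO replicate 1, MDA-MB-468 DMSO replicate 2 or ZR75-1 DMSO replicate 2 (adjusted p = 0.0725, 0.0738 and 0.0810).

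Over all 10 samples, IKBKE, IKBKB and TBKBP1 were lower in every MDA-MB-468 sample than in every ZR75-1 sample, and IKBKG and AZI2 were higher, 5 of 9 members in all. Over all genes tested, 47.8% separated the lines in this way, 18.1% lower and 29.7% higher in MDA-MB-468.

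**Figure D3:**
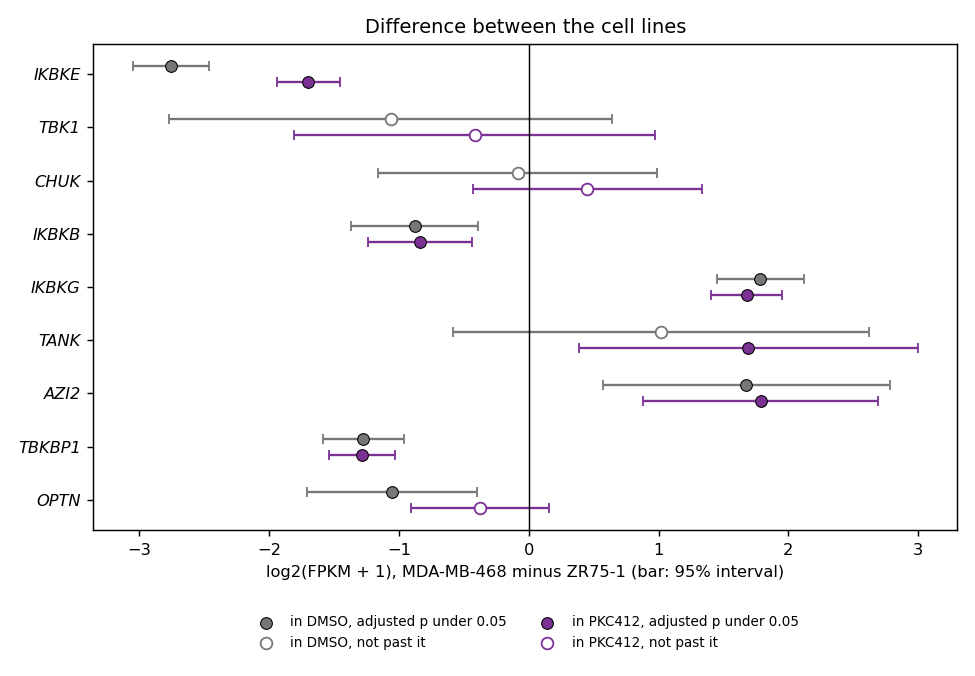
Difference of log2(FPKM + 1) between the cell lines, MDA-MB-468 minus ZR75-1, for each gene in DMSO (gray) and PKC412 (purple), with 95% intervals from limma and filled points where the adjusted p was under 0.05. IKBKE had the most negative difference in both agents, at -2.76 and -1.70, and IKBKG, at 1.78 and 1.68, and AZI2, at 1.68 and 1.79, lay on the positive side.

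The order of mean levels within a line, on the FPKM scale that accounts for length, differed between the lines in its first place. In MDA-MB-468 it ran IKBKG (54.8 FPKM, mean of 5 samples), OPTN (16.6), AZI2 (16.5), TANK (11.0), IKBKE (7.32), IKBKB (4.90), TBK1 (2.73), CHUK (2.27) and TBKBP1 (0.625). Only the first step, from IKBKG to OPTN, and the last, from CHUK to TBKBP1, separated neighbors without overlap of their samples. Compared within each sample, AZI2 exceeded TANK, IKBKE exceeded IKBKB and IKBKB exceeded TBK1 in all 5 samples as well. The remaining steps held in 3 or 4 of the 5. In ZR75-1 the order ran IKBKE (34.2 FPKM), OPTN (26.9), IKBKG (15.9), IKBKB (9.73), TBK1 (5.81), AZI2 (4.62), TANK (3.68), TBKBP1 (2.95) and CHUK (1.87), and every pair of neighbors overlapped. Within each sample, OPTN exceeded IKBKG, IKBKB exceeded TBK1 and AZI2 exceeded TANK in all 5 samples. The other steps held in 3 or 4 of the 5. IKBKE stood at the 84.8th percentile of the 14313 genes expressed in ZR75-1 and at the 59.6th of the 14703 expressed in MDA-MB-468.

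IKBKE was the only member to pass the threshold for PKC412, and did so in MDA-MB-468. All 3 PKC412 samples (8.42 to 9.68 FPKM) lay above both DMSO samples (4.71 and 4.91 FPKM), a 1.87-fold rise of the mean. The log2 difference was 0.78 (SE 0.117, 95% interval 0.51 to 1.05, limma adjusted p = 0.0231), while 1.26% of all genes tested passed in this contrast, 0.691% upward. The call was lost under 8 of 19 alternatives, with the log2 difference between 0.48 and 0.89 and the adjusted p between 0.00643 and 0.683 over the 19. They include leaving out MDA-MB-468 DMSO replicate 1 (adjusted p = 0.196), DMSO replicate 2 (0.111), PKC412 replicate 1 (0.0857) or PKC412 replicate 3 (0.106), or ZR75-1 PKC412 replicate 1 (0.0628), which enters through the shared estimate of the spread. After rescaling by median ratios the difference was 0.48 (adjusted p = 0.386). This rescaling moved the median log2 difference of all genes from 0.11 to -0.018, so that the change of IKBKE stood above the median of all genes in both scalings.

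In ZR75-1, IKBKE was at 42.1 and 34.7 FPKM in DMSO and at 30.2, 32.3 and 31.6 FPKM in PKC412. All PKC412 samples lay below both DMSO samples, but the log2 difference of -0.28 (95% interval -0.55 to -0.0088) did not pass in limma (adjusted p = 0.432). None of the 9 members passed in ZR75-1, where 0.946% of all genes did. The difference between the lines in the effect of PKC412 on IKBKE was 1.06 (SE 0.165, 95% interval 0.68 to 1.44, limma adjusted p = 0.0641) and did not pass either, nor did those of the other 8 members (adjusted p = 0.860 to 0.989). In this contrast 0.268% of all genes passed. Opposite directions in the lines without overlap of the samples, as for IKBKE, were shown by 1.62% of all genes. For IKBKE the difference passed under 4 of 18 alternatives: without the filter on low FPKM (adjusted p = 0.0407), after adjustment of FPKM for GC content and length (0.00846), without the trend in eBayes (0.0354) and without ZR75-1 DMSO replicate 2 (0.0479).

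The other kinases gave wide intervals. In MDA-MB-468, TBK1 differed by 0.59 (95% interval -0.97 to 2.14, limma adjusted p = 0.615), CHUK by 0.40 (-0.58 to 1.38, adjusted p = 0.583) and IKBKB by 0.36 (-0.087 to 0.80, adjusted p = 0.342) on the log2 scale between PKC412 and DMSO. In ZR75-1 the values were -0.060 (-1.62 to 1.5), -0.14 (-1.12 to 0.85) and 0.32 (-0.13 to 0.76). IKBKG had -0.26 in MDA-MB-468 (-0.56 to 0.047, adjusted p = 0.330) and -0.15 in ZR75-1 (-0.46 to 0.15). These intervals do not exclude changes of the size seen for IKBKE for TBK1, CHUK and, in MDA-MB-468, IKBKB.

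TANK had the largest fold of the adaptors, 2.32 in MDA-MB-468, at a log2 difference of 1.13 (95% interval -0.33 to 2.59, limma adjusted p = 0.352). OPTN had a 1.49-fold higher mean in PKC412 (0.54, -0.059 to 1.14, adjusted p = 0.320) in that line, where its 2 DMSO values and its 3 PKC412 values lay close together. With MDA-MB-468 fitted alone its adjusted p was 0.0884, and it passed under none of the 19 alternatives (0.0746 to 0.925). AZI2 (0.29, adjusted p = 0.710) and TBKBP1 (0.079, adjusted p = 0.716) had smaller differences. In ZR75-1 the differences were 0.46 for TANK, 0.18 for AZI2, 0.092 for TBKBP1 and -0.14 for OPTN, with adjusted p of 0.848 to 0.939. Counted without a test, 7 of 9 members were higher in every PKC412 sample than in every DMSO sample of MDA-MB-468 and 1, IKBKG, was lower. Of all genes tested, 39.6% and 16.3% did the same. In ZR75-1 none of the 9 was higher in this way (14.8% of all genes) and 2, IKBKE and IKBKG, were lower (6.98%). For the 9 members the median log2 difference was 0.40 among MDA-MB-468 samples, where that of all genes tested was 0.11, and -0.060 among ZR75-1 samples, where it was 0.068.

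**Figure D4:**
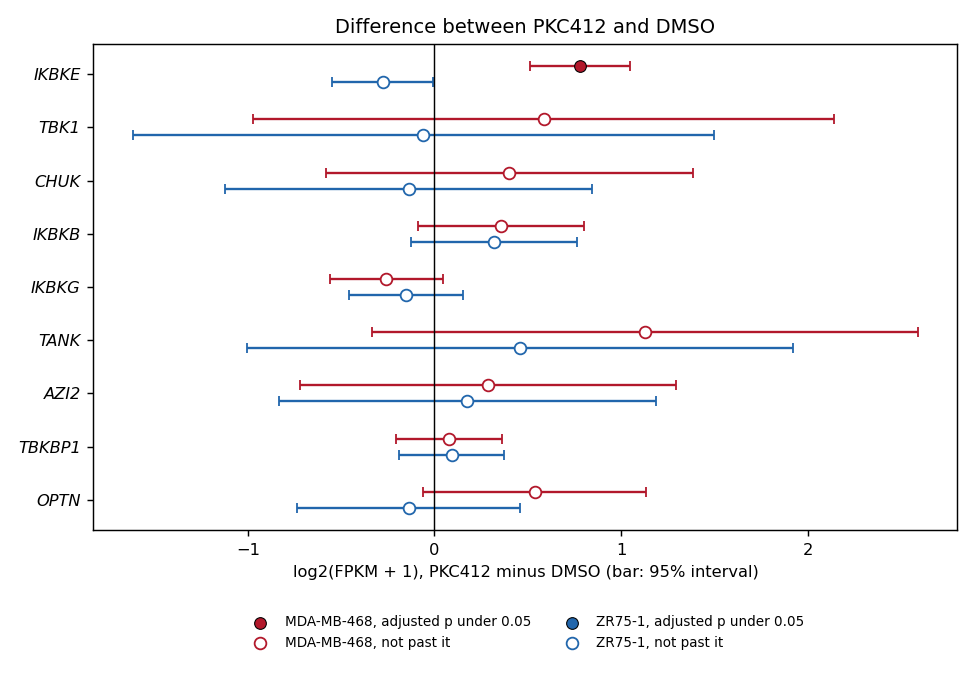
Difference of log2(FPKM + 1) between PKC412 and DMSO for each gene in MDA-MB-468 (red) and ZR75-1 (blue), with 95% intervals from limma and filled points where the adjusted p was under 0.05. IKBKE in MDA-MB-468, at 0.78, is the only filled point, and the intervals of TBK1, CHUK, TANK and AZI2 are several times as wide as those of IKBKE, IKBKG and TBKBP1.

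The 4 members with the widest of these intervals had the transcripts lowest in GC content, and the 3 with the narrowest those highest in it. The GC content of the longest protein-coding transcript was 38.0% for AZI2, 38.2% for TANK, 39.1% for CHUK, 39.3% for TBK1, 44.8% for OPTN, 52.0% for IKBKB, 58.7% for IKBKE, 62.6% for IKBKG and 65.4% for TBKBP1. In ZR75-1 the highest of the 5 FPKM values was 9.94 times the lowest for TBK1, 9.38 times for TANK, 6.66 times for CHUK and 3.77 times for AZI2, the 4 members with the lowest GC content. It was 1.40 times for IKBKE, 1.31 times for IKBKG and 1.28 times for TBKBP1, the 3 with the highest. In MDA-MB-468 the ranges followed GC content less closely. They were 4.76 times for TANK, 2.99 times for TBK1 and 2.38 times for CHUK, but 1.43 times for AZI2. IKBKE had 2.05 times, IKBKG 1.39 times and TBKBP1 1.34 times. The intervals rest on a spread estimated over both lines.

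The members of low GC content largely ordered the libraries as the GC slope did. The slopes of the ZR75-1 libraries were 0.314 and -0.192 with DMSO and -0.107, 0.342 and -0.356 with PKC412, so the agents overlapped. TBK1 was lowest in PKC412 replicate 2 (1.05 FPKM), the library with the highest slope, and highest in PKC412 replicate 3 (10.4 FPKM), the library with the lowest slope. For TBK1, CHUK, AZI2 and OPTN, all 10 of the 10 pairs of ZR75-1 libraries had the higher FPKM at the lower slope, an order that 10.1% of all genes tested showed. TANK had 9 of 10 such pairs, IKBKB 8, IKBKE 4, IKBKG 4 and TBKBP1 2, with a median of 7 over all genes.

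The slopes of the MDA-MB-468 libraries were 0.373 and 0.0573 with DMSO and -0.287, -0.0240 and -0.119 with PKC412. Here both DMSO libraries had higher slopes than every PKC412 library, and the agent and the slope cannot be told apart. TBK1, IKBKB, TANK and AZI2 had the higher FPKM at the lower slope in all 10 pairs, as did 27.8% of all genes tested, and IKBKG in 0 of 10 pairs, as did 10.7%. IKBKE, CHUK and OPTN had 9 such pairs and TBKBP1 had 7. After FPKM had been adjusted for GC content and length, the difference between PKC412 and DMSO in this line was 0.77 for IKBKE (limma adjusted p = 0.00643), nearly as before, but 0.11 for TBK1, 0.054 for OPTN, 0.13 for IKBKB, -0.094 for CHUK, -0.46 for AZI2 and 0.60 for TANK, none past the threshold. The adjustment can also remove an effect of the agent that runs along GC content.

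**Figure D5:**
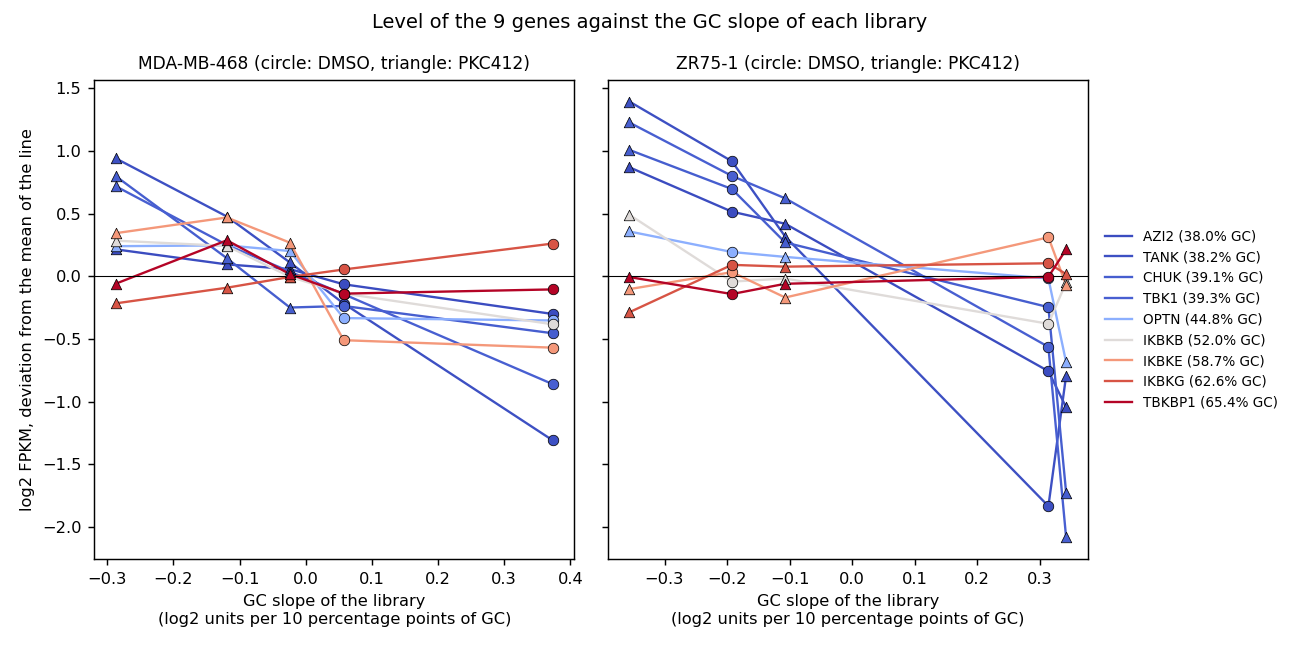
Deviation of log2 FPKM from the mean of the cell line against the GC slope of the library (log2 units per 10 percentage points of GC), with a line joining the 5 libraries of each gene, colored from low (blue) to high (red) GC content of its transcript. In ZR75-1 the blue lines of TBK1, CHUK, TANK and AZI2 fall with the slope over libraries of both agents, apart from the last step of TANK, while IKBKE, IKBKG and TBKBP1 stay within 0.5 log2 units of their mean. In MDA-MB-468 all DMSO circles lie to the right of all PKC412 triangles.

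Genes with the pattern most like that of IKBKE were ranked by the Pearson correlation of log2(FPKM + 1) over the 10 samples among 11143 genes. CXCL1, a neutrophil-attracting chemokine (r = 0.989), RND1 (0.986), MKNK2, a kinase of the translation factor eIF4E (0.986), PGLYRP4 (0.984) and NINJ1 (0.984) came first. After subtraction of each line's mean, SESN2, a stress-induced inhibitor of mTORC1 signaling (0.961), TRIM29 (0.959), OASL, an interferon-induced gene (0.948), TRIM27 (0.937) and DDIT4, another stress-induced mTORC1 inhibitor (0.936), came first. For TBK1 the first 5 included RBBP8 (0.997), RAB3GAP2 (0.994), VPS45 (0.992) and SDAD1 (0.988), and with the line means subtracted ETF1 (0.998), RBBP8 (0.997), AIMP1 (0.997), TAX1BP1 (0.996) and SMEK1 (0.996). TAX1BP1, an autophagy receptor and brake on NF-kappaB, is itself a partner of this pathway.

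Among the members, those closest to TBK1 after subtraction of the line means were AZI2 (0.965), CHUK (0.958), OPTN (0.896) and TANK (0.831), and IKBKE was far from it (0.176). All these correlations are over 10 samples that share their libraries. The 4 of the 5 genes nearest to TBK1 with a GC value, ETF1, RBBP8, AIMP1 and TAX1BP1, had transcripts of 43.5%, 40.0%, 36.3% and 48.0% GC, and the 5 nearest to IKBKE ones of 51.4% to 59.5%, beside a median of 50.8% over the genes compared.

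Promoter sequences from RefSeq (GRCh38.p14) were found for 8 of the 9 members, all but IKBKB, and the 250 bases before the start were searched on both strands for the NF-kappaB consensus, the CRE (TGACGTCA), the AP-1 site (TGANTCA), the ETS core (CCGGAAG) and the E-box (CACGTG). Those of the noncanonical pair and of OPTN are shown. IKBKE was the only member to pass for PKC412, TBK1 is its relative, and OPTN was the only member with an NF-kappaB consensus match. Capitals mark the matches, and the start is that of RefSeq, which is not always the GENCODE one. By the GENCODE positions, the windows of IKBKG, AZI2 and OPTN lie wholly within the gene. Those of TBK1, CHUK and TANK lie partly within it.
IKBKE (chr1:206470226-206470475, forward strand): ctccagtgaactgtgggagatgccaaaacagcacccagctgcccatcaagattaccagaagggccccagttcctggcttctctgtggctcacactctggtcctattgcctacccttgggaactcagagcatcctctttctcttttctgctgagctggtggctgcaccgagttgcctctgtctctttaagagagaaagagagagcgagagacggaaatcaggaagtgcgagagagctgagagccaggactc
TBK1 (chr12:64451870-64452119, forward strand): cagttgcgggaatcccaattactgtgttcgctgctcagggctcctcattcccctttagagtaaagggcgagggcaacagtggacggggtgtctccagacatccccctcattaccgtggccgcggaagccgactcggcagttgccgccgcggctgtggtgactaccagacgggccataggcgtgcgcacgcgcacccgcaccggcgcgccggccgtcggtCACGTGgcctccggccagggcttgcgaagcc
OPTN (chr10:13099832-13100081, forward strand): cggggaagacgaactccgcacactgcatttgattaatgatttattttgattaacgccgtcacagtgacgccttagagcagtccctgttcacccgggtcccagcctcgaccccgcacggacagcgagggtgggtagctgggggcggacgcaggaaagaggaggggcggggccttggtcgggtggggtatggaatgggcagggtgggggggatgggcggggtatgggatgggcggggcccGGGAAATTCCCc
The OPTN match, GGGAAATTCC, begins 12 bases before the start and overlaps a match on the reverse strand that begins 11 bases before it. The NF-kappaB consensus was present in 5.05% of 27305 promoters. TBK1 had an E-box 31 bases before its start and TBKBP1 one 152 bases before its start (6.49% of promoters), and CHUK, IKBKG and AZI2 had an ETS core (8.82%). None of the 5 motifs was found in the window of IKBKE, which held 4 CpG dinucleotides at 54% GC, against 27 at 66.8% in that of TBK1. The absence of a match says only that these letters are not in this window.

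The genes around the kinases were followed through lists, which were chosen with earlier results of these data known. Of 19 upstream kinases and ubiquitin ligases, among them MAP3K7 and TRAF6, none passed for PKC412 in either line at the settings used throughout, and the same was true of 10 autophagy receptors and ATG8 proteins, of 9 tested nucleic acid sensors and adaptors and of 6 chaperones and partners of IKK complexes. Over all genes tested, 1.26% passed in MDA-MB-468 and 0.946% in ZR75-1. At these shares, lists of this size without a call do not stand apart from the other genes. Of the upstream list, MAP3K14 was lower in MDA-MB-468 after the GC adjustment and without the trend, TRAF2 was higher in ZR75-1 after the GC adjustment, and BIRC3 was higher in MDA-MB-468 without ZR75-1 PKC412 replicate 2, each past the threshold and named after its values were seen. The other 3 lists gave no call under any alternative. By limma at an adjusted p under 0.05, no list gene passed for the difference in effect between the lines, beside 0.268% of all genes tested. For MDA-MB-468 and ZR75-1 the median log2 differences were 0.32 and 0.15 in the upstream list and 0.46 and 0.37 in the autophagy list, beside 0.11 and 0.068 over all genes. After rescaling by median ratios they were 0.025 and 0.012 in the upstream list and 0.17 and 0.17 in the autophagy list, and after the GC adjustment 0.11 and -0.016, and 0.26 and 0.089. Without ZR75-1 DMSO replicate 1 the ZR75-1 medians of both lists were below 0, at -0.014 and -0.063.

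Changes were found among the factors on which the IKK kinases act and the genes they switch on. Of 12 Rel, IκB and IRF genes, 4 rose in MDA-MB-468 and 2 in ZR75-1, where 1.26% and 0.946% of all genes tested passed in either direction. NFKBIA, which encodes IκBα, the substrate of IKBKB, went from 10.4 and 12.8 FPKM in DMSO to 53.6, 45.1 and 51.1 FPKM in PKC412 in MDA-MB-468 (log2 difference 2.02, limma adjusted p = 0.00423), and from 52.5 and 84.3 to 143, 170 and 141 FPKM in ZR75-1 (1.17, adjusted p = 0.0462). NFKB2, the precursor protein processed when CHUK is active, rose 2.53-fold (1.25, adjusted p = 0.00226) and 2.37-fold (1.23, adjusted p = 0.00216). RELB, the partner of NFKB2, rose 3.93-fold (1.87, adjusted p = 0.00266) and BCL3 1.60-fold (0.67, adjusted p = 0.0401) in MDA-MB-468. The median of the list was 0.32 and 0.091 in MDA-MB-468 and ZR75-1, respectively, beside 0.11 and 0.068 over all genes.

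Of 16 NF-kappaB target genes, 7 rose in MDA-MB-468, where the list median was 1.34, and 4 in ZR75-1, where it was 0.62. Over all genes tested, 1.26% and 0.946% passed in these lines in either direction, at medians of 0.11 and 0.068. NFKBIA, NFKB2 and RELB are on this list too, so its counts and those of the Rel, IκB and IRF genes are not independent. ICAM1, a leukocyte adhesion molecule, rose 2.71-fold in MDA-MB-468 (1.39, limma adjusted p = 0.00772). The cytokine gene TNF, named after its values were seen, went there from 0.0726 and 0.0322 FPKM to 2.02, 1.21 and 1.55 FPKM (1.29, adjusted p = 0.0271), and CXCL1 from 0.136 and 0.352 FPKM to 2.43, 1.95 and 2.56 FPKM (1.42, adjusted p = 0.0356). CXCL1 had the pattern most like that of IKBKE before, but not after, subtraction of the line means. Its level was far higher in ZR75-1, at 29.8 and 46.5 FPKM in DMSO and 28.1, 21.6 and 32.7 FPKM in PKC412, and did not pass there. In ZR75-1, CXCL2, a chemokine, rose 2.77-fold (1.31, adjusted p = 0.0484) and IL6, a cytokine, rose from 0.0361 and 0 FPKM to between 0.589 and 0.984 FPKM (0.84, adjusted p = 0.00650). Of 10 brakes on IKK signaling, TNFAIP3 (A20), a ubiquitin-editing enzyme that is also on the target list, rose in MDA-MB-468 from 0.163 and 0.285 FPKM to 6.41, 3.09 and 4.29 FPKM (2.15, adjusted p = 0.0287). TNIP3, which encodes a partner of A20, fell in ZR75-1 from 0.650 and 0.829 FPKM to 0.287, 0.211 and 0.383 FPKM (-0.43, adjusted p = 0.0306).

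These counts moved with single libraries and with the processing. For MDA-MB-468, 3 of the 16 targets passed without MDA-MB-468 DMSO replicate 1 or DMSO replicate 2, and 4 without MDA-MB-468 PKC412 replicate 1, PKC412 replicate 3 or ZR75-1 PKC412 replicate 1. For ZR75-1, 1 passed without ZR75-1 DMSO replicate 1, where the list median was 0.17 in place of 0.62, and 2 passed without ZR75-1 PKC412 replicate 1 or 3 or without any 1 of the MDA-MB-468 libraries. With each line fitted alone the counts were 8 and 0, and with a pseudocount of 0.1 they were 10 and 2. After rescaling by median ratios, 6 of the 16 targets rose in the MDA-MB-468 samples and 3 in those of ZR75-1, at medians of 1.07 and 0.44. After adjustment for GC content and length the counts were 12 and 7, with medians of 1.31 and 0.61. Under the replicate block none of the 16 passed in either line. Of the 12 Rel, IκB and IRF genes, 3 or 4 rose in MDA-MB-468 and 1 or 2 in ZR75-1 with any 1 library left out, and 3 and 0 with each line fitted alone. In this list 1 rose in MDA-MB-468 after the rescaling and 0 in ZR75-1, and 4 and 3 after the adjustment. In MDA-MB-468, NFKBIA passed under 18 of 19 alternatives, NFKB2 and RELB under 17 and ICAM1 under 16, whereas TNFAIP3 passed under 10 and BCL3 under 7, and TNF and CXCL1 under 13. The ZR75-1 calls of NFKB2 and IL6 were kept under 16 of 19 and 15 of 18 alternatives, those of NFKBIA and CXCL2 under 5 and 6 of 19, and that of TNIP3 under 6 of 18.

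Of 10 tested genes of IRF3 and interferon output, 1 rose in each line, beside 1.26% and 0.946% of all genes that passed in MDA-MB-468 and ZR75-1. OASL, which was also among the genes closest to IKBKE, was at 0.675 and 0.770 FPKM in DMSO and 2.09, 2.13 and 1.95 FPKM in PKC412 in MDA-MB-468 (0.83, limma adjusted p = 0.0177), and at 2.32 and 2.05 FPKM in DMSO and a mean of 1.93 FPKM in PKC412 in ZR75-1. ISG20, an exonuclease, rose 3.02-fold in ZR75-1 (1.56, adjusted p = 0.0352). The list medians were 0.31 and -0.21. OASL passed under 10 of 19 alternatives and ISG20 under 8 of 19, and after the rescaling 1 gene of the list fell in ZR75-1 and none rose. Among the marker lists, PECAM1 rose in MDA-MB-468 (0.31, adjusted p = 0.0404) and COL1A1 in ZR75-1 (1.49, adjusted p = 0.0182), named here after their values were seen. PECAM1 passed under 2 of 18 alternatives and COL1A1 under 10 of 19. The summed immune and stromal markers were 12.0 to 13.8 FPKM in DMSO and 16.2 to 17.1 FPKM in PKC412 in MDA-MB-468, and 7.77 to 9.20 and 16.2 to 18.7 FPKM in ZR75-1, and their part in these results was not tested.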

How the data were processed

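The authors deposited FPKM values per gene symbol for each of 10 samples, made from Illumina reads with an in-house pipeline, and the submitters' processing notes name hg19, CASAVA 1.82 and TopHat2. A filter on low values and the use of strand in counting are not given in the sources used here. In places the legends of the study give a lower dose than the labels and methods, and the methods state triplicates. Groups came from the sample labels. The members and lists were chosen with earlier results of these data known.

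The test was limma (version 3.58.1, R 4.3.3) on log2(FPKM + 1), in 1 model of 4 group means with 6 residual degrees of freedom and a trended eBayes. It ran over 16071 genes whose mean FPKM exceeded 0.1 in 1 group or more, and p-values were adjusted by Benjamini-Hochberg and called under 0.05. The pseudocount of 1 understates the changes of low genes. With 2 samples against 3, exact tests were used only for ratios. On simulated data for PKC412 in MDA-MB-468 (16071 genes), 36 of 100 genes changed by a log2 of 1, 65 of 100 changed by 2 and 3 of 15871 unchanged genes were called. The simulated noise was independent between genes, so these counts do not measure the error rate under the GC dependence of the real libraries. The changed genes were drawn from those above 2 on the log2(FPKM + 1) scale in this line, so lower genes are not covered. Named genes were the 9 members, at most the 4 list genes with the smallest adjusted p per list and PKC412 contrast, and the 5 most correlated with IKBKE or TBK1. Values of 2 other genes are not reported here.

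Positions and GC content (20638 symbols, 88.1%) come from GENCODE release 29 on GRCh38, not the authors' build. The GC adjustment divided out, for each library, a cubic (degree 3) dependence on GC content and on log2 transcript length, estimated from genes over 1 FPKM in all samples of the line. Alternatives were other pseudocounts (0.1, 0.5), other filters, median-ratio rescaling, the GC adjustment, no trend, a replicate block, each line alone and each sample left out. Python 3.11.15, pandas 2.3.3, numpy 2.4.6, Biopython 1.88 and matplotlib 3.10.9 were used.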

Additional observations from a re-analysis of the deposited data

Results flagged for a closer look

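The effect of PKC412 on IKBKE ran in opposite directions in the cell lines without overlap of the samples, above DMSO in all 3 treated samples of MDA-MB-468 and below it in all 3 of ZR75-1. The difference between the effects was 1.06 on the log2(FPKM + 1) scale and did not pass in limma (adjusted p = 0.0641). Opposite directions without overlap were seen for 260 of the 16071 genes tested (1.62%), and for none of the other 8 members.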

How the results depend on the processing

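Both line differences of IKBKE, IKBKG and TBKBP1 kept direction and call under all 18 alternatives. The number of all genes called depended on the settings. For PKC412 in MDA-MB-468 it was 202, against 116 with a pseudocount of 0.1, 579 after GC and length adjustment, 81 with the line alone, and 65 to 324 with 1 sample left out. In ZR75-1 it was 152, against 452 after the adjustment, 12 with the line alone and 59 to 183 with 1 sample left out. For the difference between lines it was 43, against 27 with a pseudocount of 0.1, 68 without the filter or without the trend, 210 after the adjustment, and 16 to 64 with 1 sample left out. Median-ratio rescaling turned 111 genes up and 91 down in MDA-MB-468 into 65 and 104, and the genes higher and lower in MDA-MB-468 from 4266 and 2556 into 3525 and 3214 in DMSO and from 5944 and 3477 into 4488 and 4481 in PKC412.

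Members called for PKC412 in MDA-MB-468 were 1, but 0 after rescaling, with the line alone (adjusted p = 0.0806 for IKBKE) or under the block, and 0 to 1 with 1 sample left out. For the difference between lines they were 0, but 1 without the filter, without the trend or after the adjustment, and 0 to 1 with 1 sample left out. Between the lines in DMSO they were 6, and 3 to 6 with 1 sample left out (3 without MDA-MB-468 DMSO replicate 1).

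Some members past no threshold changed sign. For PKC412 in MDA-MB-468, CHUK was -0.094 and AZI2 -0.46 after GC adjustment, and AZI2 was -0.028 and TBKBP1 -0.044 after rescaling. In ZR75-1, TBKBP1 was -0.063 after rescaling and AZI2 -0.045 after GC adjustment. CHUK between the lines in DMSO was 0.12 after GC adjustment. With 1 sample left out, PKC412 in ZR75-1 gave -0.62 to 0.68 for TBK1, -0.47 to 0.27 for CHUK, -0.45 to 1.37 for TANK, -0.32 to 0.68 for AZI2 and -0.34 to 0.16 for OPTN. Between the lines, CHUK in DMSO gave -0.39 to 0.22 and TBK1 in PKC412 -1.15 to 0.086. The log2 ratio of IKBKE to TBK1 between lines was -1.82 to -0.98, and its PKC412 difference was -0.27 to 0.39 in MDA-MB-468 and -1.11 to 0.73 in ZR75-1. The cause of these changes was not tested.

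Whether the replicate numbers in the labels pair the samples is not known. The deviations of same-numbered DMSO and PKC412 samples from their group means correlated at -0.688 and -0.608 in MDA-MB-468 and at 0.123 and -0.627 in ZR75-1 over 7685 genes. With 2 DMSO samples, their deviations are exact opposites, so the values of a line are not independent and cannot settle the pairing. With a replicate block, limma called 0 genes for PKC412 in MDA-MB-468 (703 at an unadjusted p under 0.05), 0 in ZR75-1 (589) and 0 for the difference (445), with 2 residual degrees of freedom. IKBKE in MDA-MB-468 was 0.73 (adjusted p = 0.683), AZI2 in ZR75-1 was -0.14, and the log2 ratio of IKBKE to TBK1 was -1.49 between lines (exact permutation p = 0.125), -0.033 for PKC412 in MDA-MB-468 and 0.56 in ZR75-1. A fit that leaves 1 DMSO sample assumes that it varies like the other groups. Depth is unknown, so no lower limit of detection is given for CHUK or TBKBP1.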
